A study of Mus musculus with 2 samples.

Results

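The macrophages described here are the cells of injured mouse quadriceps that carried C1q together with Lyve1, Folr2 or Cd163, a combination known from macrophages that live in the tissue before injury. They were chosen on their own counts. A cell passed the macrophage gate with at least 5 UMIs (unique molecules) of C1qa, C1qb and C1qc together, at least 1 UMI of Csf1r, Mrc1 or Adgre1, and none of Pdgfra or Cdh5, and it counted as a member with at least 2 UMIs of Lyve1, Folr2 and Cd163 together. This gave 299 members of 13047 cells, with 175 members among 4900 cells at 2 h and 124 among 8147 cells at 9 h. The 184 gated cells with fewer UMIs of the 3 genes, 90 at 2 h and 94 at 9 h, are called the other gated macrophages below. The series asks about CCL2 made by fibro-adipogenic progenitors (FAPs), the connective tissue cells between muscle fibres, and the monocytes and macrophages that enter muscle after an acute injury. Both groups were wild-type C57BL/6J mice, with an injection of 100 µl of 1.2% (w/v) barium chloride, a salt that kills muscle fibres, into the quadriceps. One group was taken 2 h and the other 9 h after the injection, with no uninjured muscle among the samples. No source used here gives the mice's ages or how many were behind each library, and mononuclear cells were frozen and thawed before droplet sequencing. Each time is 1 library, so no difference below could be checked against replicates. No test was made, and every interval is a 95% interval of counting error alone.

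Tissue macrophages of this kind sit along vessels and in the connective tissue of many organs, skeletal muscle included, and are known for clearing debris, taking up haemoglobin and iron, and sampling their surroundings. Lyve1 encodes a hyaluronan receptor first known from lymphatic endothelium (chr7:110850607-110863239, minus strand), Folr2 a folate receptor (chr7:101839988-101857194, minus strand) and Cd163 the scavenger receptor for haemoglobin bound to haptoglobin (chr6:124304656-124330527, plus strand), with positions on mm10 in the GENCODE M21 annotation. C1qa, C1qb and C1qc encode the chains of complement C1q, and their genes lie side by side on chromosome 4. After injury, monocytes with the receptor Ccr2 enter from the blood and can take on macrophage features, so that resident and newly arrived cells are usually told apart by marker genes.

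Libraries differed in depth. The 2 h library had a median of 4519 UMIs per kept cell and the 9 h library 2327, but the members were close in depth, with medians of 5666 and 5182 UMIs and 1038006 and 705402 UMIs in all. Their median mitochondrial shares were 6.17% and 4.51%. Of the kept cells, 12 barcodes occurred in both libraries, 1 of them in a member at 2 h, and none was a member in both. Below, a level is given in CPM, counts per 1000000 UMIs of the set of cells named.

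The 3 genes that chose the members were carried in different mixtures. At 2 h, 72 members (41.1%) had UMIs of all 3, and at 9 h 40 (32.3%). Lyve1 stood at 755 CPM at 2 h and 403 CPM at 9 h, Folr2 at 691 and 318 CPM, and Cd163 at 756 and 1195 CPM. Lyve1 and Folr2 were thus lower and Cd163 higher at 9 h, and 22 members at each time had Cd163 alone (12.6% of the members at 2 h and 17.7% at 9 h). Unthinned, Lyve1 was found in 73.7% and 62.1% of members, Folr2 in 77.7% and 67.7%, and Cd163 in 71.4% and 77.4%. After each member was thinned to 1000 UMIs, which kept 174 and 123 members, Lyve1 was found in 40.8% at 2 h and 31.7% at 9 h, Folr2 in 43.1% and 32.5%, and Cd163 in 42.0% and 55.3%. Of the other genes in the gate, Csf1r, the receptor for the macrophage growth factor CSF1, stood at 1008 and 315 CPM, Adgre1 (F4/80) at 513 and 125 CPM, and the mannose receptor Mrc1 at 1868 and 2359 CPM. These values describe the choice of cells and support nothing else.

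The limit of 2 UMIs ran through a gradient. At 2 h, 31 gated cells had 1 UMI of the 3 genes and 20 had 2, and at 9 h 17 had 1 and 13 had 2. Cbr2, a carbonyl reductase known from tissue macrophages and no part of the rule, stood at 124 CPM just outside and 149.8 CPM just inside the limit at 2 h, against 803 CPM in the 78 cells with 10 or more UMIs. At 9 h the same values were 58.1, 31.3 and 205 CPM, the last over 48 cells. Ccr2 ran the other way at 2 h, from 396 CPM at 1 UMI and 229 CPM at 2 UMIs to 46.4 CPM at 10 or more, while at 9 h it was 302, 266 and 169.6 CPM.

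Of the given markers, Cbr2 alone took no part in the gate or the rule. It stood at 588 CPM at 2 h and 153 CPM at 9 h in the members and at 72.3 and 24.0 CPM in the other gated macrophages, and the members, 3.57% and 1.52% of the cells, held 85.1% at 2 h and 76.1% at 9 h of all its UMIs. The summed level of 10 macrophage markers was 16921 CPM at 2 h and 13221 CPM at 9 h, most of it from the 6 genes of the gate, and that of the 6 resident markers, 5 of which are in the rule, was 8768 and 6944 CPM. Markers of T and NK cells were at 0 at both times. Those of mast cells (1.93 and 1.42 CPM), satellite cells (8.67 and 1.42), tenocytes (24.1 and 5.67), glia (24.1 and 11.3) and red cells (1.93 and 4.25) were near it. Markers of muscle fibres summed to 90.6 and 36.9 CPM, pericytes or smooth muscle to 101 and 39.7, endothelium to 125 and 258, lymphatic endothelium to 24.1 and 164, dendritic cells to 177 and 132, and B cells to 120.4 and 9.92. Most of the endothelial sum at 9 h was Fabp4, and the rest of that sum was lower at 9 h than at 2 h. The lymphatic sum was nearly all Pdpn (23.1 and 164 CPM), with Flt4, Mmrn1, Ccl21a and Reln at 0. The B cell sum was nearly all Ighm, with Cd79a, Ms4a1 and Pax5 at 0. The monocyte list summed to 197 and 419.6 CPM, with Ccr2 as its highest gene at 139.7 and 177 CPM, while Ly6c2, which defines classical monocytes, was at 2.89 and 9.92 CPM.

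RNA of neutrophils and FAPs was present in the members and differed between the times. Neutrophil markers summed to 1348 CPM at 2 h and 2332 CPM at 9 h, and FAP markers to 468 and 301 CPM. Only 3 members at 2 h and 6 at 9 h had over 1% of their UMIs in neutrophil markers. They held 71.7% and 80.8% of these UMIs, and without them the sums were 391 and 473 CPM. If all S100a8 and S100a9 in the members came from neutrophils, neutrophil RNA made up 0.854% of their UMIs at 2 h and 2.01% at 9 h, and by Dcn, a matrix proteoglycan of FAPs, FAP RNA made up 0.595% and 1.04%. At 9 h 1 member held 45.3% of the FAP marker UMIs, and without it their sum was 166 CPM. Where such a share could supply much of a level below, the level it would give is printed beside the gene.

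Members were 3.57% of kept cells at 2 h (exact binomial interval 3.07 to 4.13%) and 1.52% at 9 h (1.27 to 1.81%). Gated neutrophils (at least 20 UMIs of S100a8 and S100a9, with Csf3r and little C1q) were 28.5% and 31.2% of kept cells, and outside that gate members were 4.997% of 3502 cells at 2 h and 2.21% of 5604 cells at 9 h. Among gated macrophages the share of members was 66.0% of 265 (60.0 to 71.7%) and 56.9% of 218 (50.02 to 63.6%), intervals that overlap. With every cell thinned to 2000 UMIs before the rule was applied, that share was 52.4% at 2 h and 51.2% at 9 h. All of these are shares and not numbers of cells in the muscle. Fewer such cells, a lower yield of them, more cells of other kinds and less Lyve1 or Folr2 per cell cannot be told apart.

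Genes that mark resident macrophages but took no part in the rule were mostly lower at 9 h. Of 25 such genes, 21 were measured (at least 100 UMIs over both libraries in the members); 12 were at least 2-fold lower and 2 at least 2-fold higher, with a median log2 ratio of -1.39. Over all 2405 measured genes, 9.85% were at least 2-fold lower at 9 h, 8.11% at least 2-fold higher, and the median log2 ratio was 0.04 (log2 ratios are taken after adding 10 CPM to each level). Scaling by TMM moved that median by -0.11, to -0.07, and the part of the 2-fold differences that pointed upward from 45.1% to 35.7%, so differences near 2-fold depend on the scaling.

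Selenop, which encodes the plasma selenium carrier selenoprotein P, stood at 3508 CPM (3395 to 3624) at 2 h and 741 CPM (679 to 808) at 9 h, 4.73-fold lower (interval 4.32 to 5.195), and was found in 90.2% and 43.9% of members thinned to 1000 UMIs (100.0 and 78.2% unthinned), against 1.19% of neutrophils at 9 h. Cbr2 was 3.84-fold lower (interval 3.12 to 4.75). Gas6, the bridging ligand by which phagocytes hold dying cells through Mertk and Axl, stood at 359 CPM at 2 h and 66.6 CPM at 9 h. The lectin genes Mgl2 (749.5 and 206 CPM) and Cd209f (134 and 8.51 CPM) were lower too, the latter with 139 and 6 UMIs. Fcgrt, the receptor that salvages IgG, was 4.49-fold lower, Fxyd2, a subunit of the sodium pump, 5.48-fold, and the growth factor gene Igf1 2.79-fold. Other genes on the list differed by less than 2-fold, among them the transcription factor gene Maf (625 and 339 CPM), the scavenger receptor Stab1 (376 and 296 CPM) and F13a1, the A chain of coagulation factor XIII (1293 and 866 CPM). The 2 genes that were higher were Pf4, platelet factor 4, with 4469 CPM (4341 to 4599.6) at 2 h and 10099 CPM (9866 to 10336) at 9 h, and the lectin Clec10a, with 221 CPM at 2 h and 502 CPM at 9 h. The members held 74.98% at 2 h and 61.4% at 9 h of all Pf4 UMIs in the libraries.

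**Figure D1:**
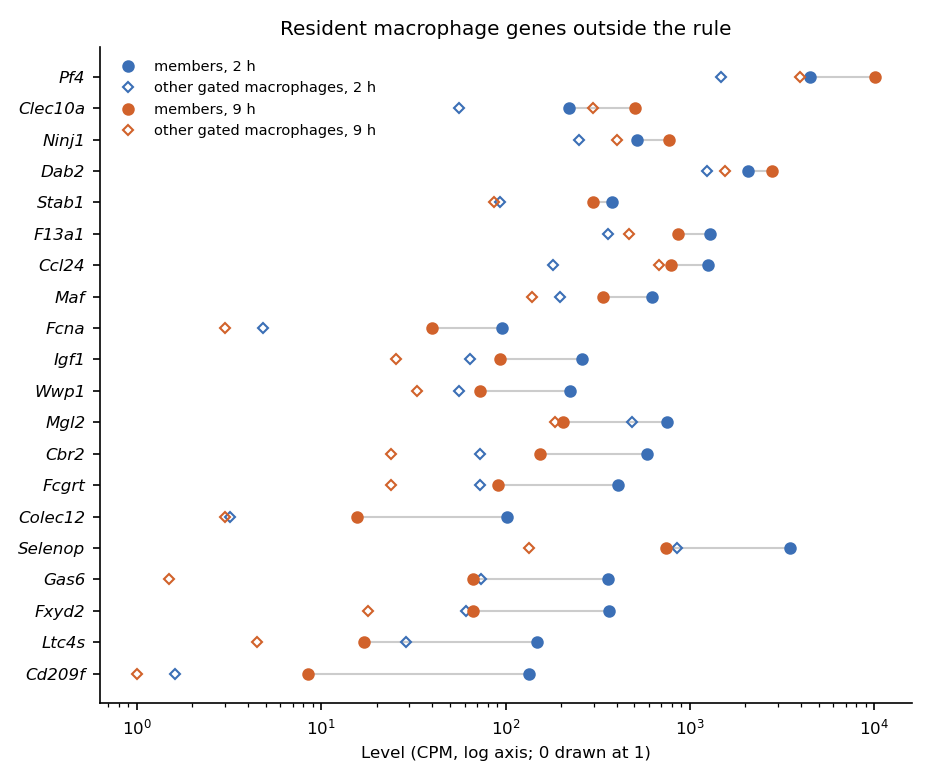
Levels (CPM, log axis) of 20 of the 21 measured resident macrophage genes that took no part in the rule, in members (filled circles, joined by a line) and in other gated macrophages (open diamonds), at 2 h (blue) and 9 h (orange). Members lie above the other gated macrophages of the same time for every gene shown, and 16 of them are lower at 9 h than at 2 h in members.

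The other gated macrophages of the same libraries had lower levels of Selenop (854 and 134 CPM), Gas6 (73.9 and 1.502 CPM), Fcgrt (72.3 and 24.0 CPM) and Pf4 (1479 and 3940.2 CPM), which also differed between the times in the same direction as in the members. Ccl24, the eotaxin-2 gene, set the cells apart at 2 h more than at 9 h: members had 1260.1 and 785 CPM and the other gated macrophages 181 and 676 CPM. Members held 80.8% at 2 h and 46.4% at 9 h of its UMIs.

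Among genes at 100 CPM or more whose level in members was at least 50% of that over all kept cells, the highest ratios at 9 h were those of Arg1, Ppbp, Saa3 and Hilpda. Arg1, the arginase of alternatively activated macrophages, had no UMI in the 175 members at 2 h (an upper limit of 3.55 CPM) and 332 UMIs, 471 CPM (421 to 524), at 9 h, at least 163-fold higher than a floor of 3 counts over the 2 h members. It came from 36 of 124 members, and the tenth of members with most Arg1 held 82.2% of its UMIs. Other gated macrophages had 1.61 CPM at 2 h and 435 CPM at 9 h. Ppbp, which encodes platelet basic protein, a CXCR2 ligand once cleaved, stood at 41.4 CPM (30.0 to 55.8) at 2 h and 2251 CPM (2142 to 2365) at 9 h, 54.3-fold higher (interval 40.2 to 75.4). It was found in 18 of 175 members at 2 h and 56 of 124 at 9 h. At equal depth 2.30% and 31.7% of members had it, against 0.147% and 0.164% of neutrophils. Other gated macrophages had 45.0 CPM of Ppbp at 2 h and 1143 CPM at 9 h, so it was higher at 9 h there too. The acute-phase gene Saa3 had no UMI at 2 h and 305 CPM at 9 h, all of it in 12 members with up to 89 UMIs each. Hilpda and Plin2, which encode proteins of lipid droplets, stood at 25.05 and 554 CPM and at 393 and 2020.1 CPM; Plin2 was found in 28.7% and 73.2% of members at equal depth (62.9 and 96.8% unthinned) and in 30.9% and 57.6% of neutrophils. At 9 h the other gated macrophages had 680.2 CPM of Hilpda and neutrophils 489 CPM, of which the neutrophil share would supply 9.84 CPM in members. Plin2 stood at 361 CPM at 2 h and 1882 CPM at 9 h in the other gated macrophages.

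Gdf15, a cytokine gene of stressed cells, was 4.51-fold higher (interval 3.76 to 5.43), with 153 CPM at 2 h and 690.4 CPM at 9 h in the members and 93.1 and 242 CPM in the other gated macrophages. At 9 h 1 member had 126 of its 487 UMIs, and the tenth of members with most Gdf15 held 75.2%. The interval does not cover that spread between cells. With the rule applied to cells thinned to 2000 UMIs the log2 ratio of Gdf15 was 0.98 in place of 2.10. Areg, which encodes the EGF receptor ligand amphiregulin, stood at 35.6 CPM at 2 h and 215 CPM at 9 h, but in 10.9% and 10.5% of the members, so that the difference lay within few cells, 1 of which had 62 of the 152 UMIs at 9 h. Also higher were the transglutaminase Tgm2 (18.3 and 156 CPM), the glutaredoxin Glrx (66.5 and 326 CPM), the formin Fmnl2 (12.5 and 128 CPM), the purine salvage enzyme Aprt (49.1 and 239.6 CPM) and fibronectin, Fn1 (83.8 and 388 CPM).

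Itm2b, which encodes a membrane protein processed by furin, had the most counts of the 12 genes lowest at 9 h: 3299 CPM (3189 to 3411) at 2 h and 540.1 CPM (487 to 597) at 9 h, 6.11-fold lower (interval 5.49 to 6.81). All 175 members had a UMI of it at 2 h, and at equal depth 92.0% of members at 2 h and 36.6% at 9 h, where 77.4% had one unthinned. In neutrophils the shares at equal depth were 47.2% and 21.6%. Igfbp4, a binding protein of insulin-like growth factors, stood at 438 CPM at 2 h and 35.4 CPM at 9 h and was found at equal depth in 41.4% and 2.44% of members (81.7 and 13.7% unthinned). FAPs carried 968 CPM of it at 2 h, of which the FAP share given by Dcn would supply 5.76 CPM. Steap4, a metalloreductase, had 136 UMIs at 2 h and 2 at 9 h, 46.2-fold lower (interval 12.5 to 385). Tppp3, Abca9 and Slc9a9 stood at 188, 142 and 120.4 CPM at 2 h and at 8.51, 9.92 and 11.3 CPM at 9 h. Over all kept cells these 3 were lower at 9 h too (257 and 6.29, 109 and 8.63, and 19.3 and 2.05 CPM). Itm2b was also lower in other gated macrophages (1402 and 308 CPM). Steap4 (259 and 239 CPM) and Mndal (253 and 178 CPM) differed by less than 2-fold over all kept cells. In other gated macrophages both were lower at 9 h, Mndal with 108 and 31.5 CPM and Steap4 with 14.5 and 0 CPM. Ltc4s, the leukotriene C4 synthase, was 8.66-fold lower (interval 4.82 to 17.1), and the interferon-inducible Mndal 7.33-fold lower. Ighm, an immunoglobulin gene of B cells, was also among the 12 (118 and 9.92 CPM), and was lower at 9 h over all kept cells (28.3 and 4.27 CPM). The levels of some of these genes rested on few cells. The tenth of members with most Cd209f held 91.4% of its UMIs at 2 h, and that with most Steap4 88.2%. Ccl8, a CC chemokine, stood at 714 CPM at 2 h and 45.4 CPM at 9 h, with 371 of its 741 UMIs at 2 h in 1 member, and Mucl1 at 345 CPM at 2 h and 34.0 CPM at 9 h, with all of its UMIs in 3 members at 2 h and 1 at 9 h.

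**Figure D2:**
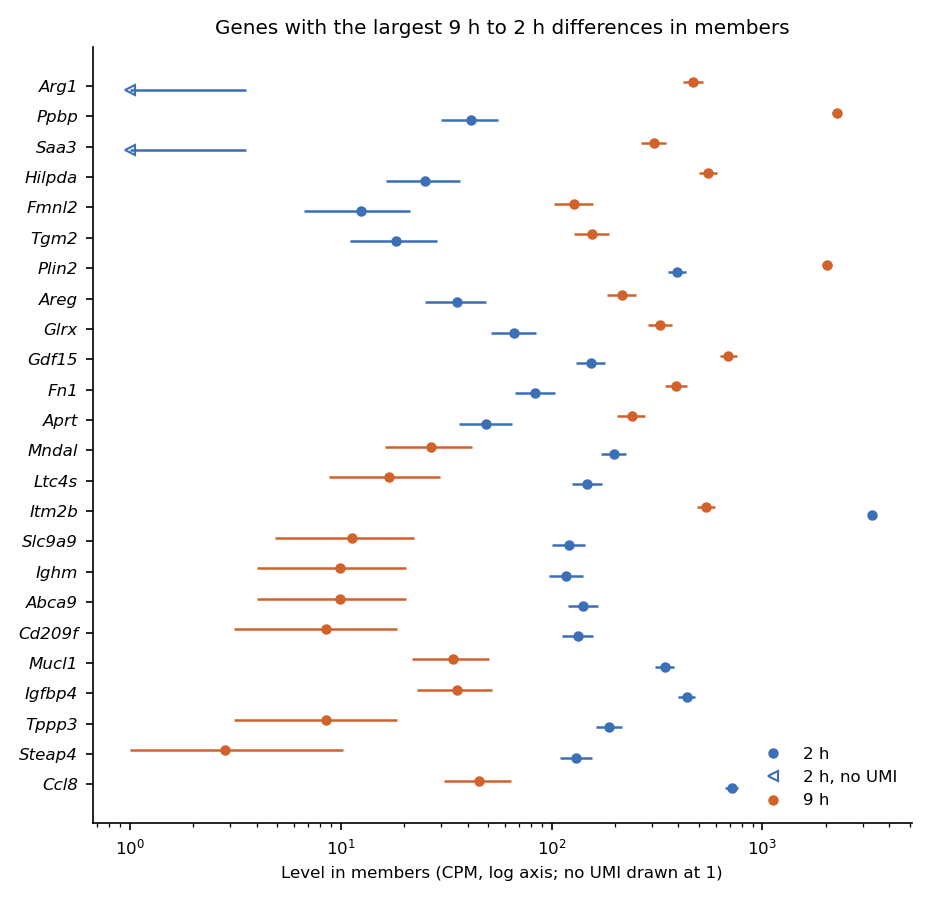
Levels (CPM, log axis) in the members at 2 h (blue, 175 cells) and 9 h (orange, 124 cells) of the 12 genes with the highest and the 12 with the lowest log2 ratio among genes past the level limits, with exact 95% Poisson intervals as lines. Arg1 and Saa3 had no UMI at 2 h (open triangles at 1), and the levels of Itm2b, 3299 and 540.1 CPM, lie far outside each other's intervals.

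Chemokine and cytokine genes lay mostly higher at 9 h, and CXC chemokines and cytokines had the highest medians of the 25 lists. As above, 8.11% of all measured genes were at least 2-fold higher at 9 h and 9.85% at least 2-fold lower. These shares stand beside every list count below. Of 7 measured CXC chemokines 6 were at least 2-fold higher at 9 h and none lower (median log2 ratio 1.82), of 9 CC chemokines 4 were higher and 1 lower (0.94), and of 7 cytokines 5 were higher and none lower (1.43). Cxcl2, which draws neutrophils through CXCR2, stood at 5318 CPM (5179 to 5460.1) at 2 h and 18811 CPM (18492 to 19133) at 9 h, 3.54-fold higher (interval 3.43 to 3.65). Neutrophils themselves carried 22232 and 52291 CPM, of which the carried-over share would supply 189.9 and 1053 CPM in the members. Cxcl1 stood at 178 CPM at 2 h and 1564 CPM at 9 h and Cxcl3 at 128 CPM at 2 h and 1128 CPM at 9 h, with the other gated macrophages at 987 and 1936 CPM at 9 h. Cxcl5 had 4 UMIs (3.85 CPM) at 2 h and 591 (838 CPM) at 9 h. FAPs carried 11206 CPM of it at 9 h, and their share by Dcn would supply 117 CPM. Cxcl5 was found in 42 of 124 members, 1 of them with 106 UMIs. Cxcl5, Ppbp and Pf4, each at least 2-fold higher at 9 h, are neighbours on one strand of chromosome 5 (chr5:90759360-90761624, plus strand; chr5:90768518-90770063, plus strand; chr5:90772435-90773383, plus strand). Cxcl10 was 2.93-fold higher (105 and 308 CPM), and Cxcl16, a membrane-bound chemokine, had 182 and 190.0 CPM.

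Ccl2, the monocyte chemoattractant the series is about, stood at 1369.9 CPM (1299.7 to 1443) at 2 h and 3005 CPM (2879 to 3136) at 9 h in the members, 2.19-fold higher (interval 2.05 to 2.35), and Ccl7, its neighbour on chromosome 11, at 1589.6 CPM (1514 to 1668) at 2 h and 2929 CPM (2804 to 3058) at 9 h, 1.84-fold higher (interval 1.73 to 1.97). Other gated macrophages had 745 and 1975 CPM of Ccl2 and 691 and 1885 CPM of Ccl7, and FAPs 657 and 8566 CPM of Ccl2 and 956 and 3596 CPM of Ccl7. For both genes the level in members was above that in FAPs at 2 h and below it at 9 h. The FAP share would supply 89.3 CPM of the members' Ccl2 at 9 h. Members held 9.92% at 2 h and 1.13% at 9 h of all Ccl2 UMIs and 8.73% at 2 h and 2.68% at 9 h of all Ccl7 UMIs. At equal depth Ccl2 was found in 42.5% and 62.6% of members, against 0.954% and 5.93% of neutrophils, and Ccl7 in 42.0% and 61.0%, against 1.91% and 3.15%. Unthinned, 65.1 and 79.0% of members had Ccl2 and 63.4 and 79.0% Ccl7. Across single members Ccl2 and Ccl7 levels went together, with Spearman's rho 0.53 (Pearson's r 0.55, 175 cells) at 2 h and 0.65 (0.66, 124 cells) at 9 h, over cells that share a library and differ in depth. Of the rest, Ccl3 (888 and 2394 CPM), Ccl4 (1408 and 2961 CPM) and Ccl9 (2486 and 5305 CPM) were higher at 9 h, Ccl6 was 1.92-fold higher, and Ccl12 had 235 and 242 CPM.

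Among cytokines, Il10, which dampens inflammation, stood at 106 CPM (87.1 to 128) at 2 h and 305 CPM (265 to 348) at 9 h, 2.88-fold higher (interval 2.28 to 3.65), and members held 48.9% at 2 h and 37.2% at 9 h of its UMIs. Its level in other gated macrophages was 72.3 and 109.6 CPM. Genes of inflammatory cytokines were higher as well: Tnf had 222 CPM at 2 h and 485 CPM at 9 h, and oncostatin M, Osm, 96.3 CPM at 2 h and 329 CPM at 9 h. For Il1b (139.7 and 394 CPM) the neutrophil share would supply 68.4 and 192 CPM. The interleukin-1 antagonist Il1rn had 494 CPM at 2 h and 634 CPM at 9 h, and Tnfsf9 40.5 CPM at 2 h and 139 CPM at 9 h. Among growth factors, 2 of 8 measured genes were higher, Gdf15 and Areg as above, and 1 lower, Igf1 (median log2 ratio -0.44). The EGF family ligand Hbegf had 296 CPM at 2 h and 169 CPM at 9 h and Tgfb1 221 CPM at 2 h and 164 CPM at 9 h.

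MHC class II genes, which present antigen to CD4 T cells, were lower at 9 h. Of 6 measured genes 5 were at least 2-fold lower and none higher (median log2 ratio -1.23); with the rule applied to cells thinned to 2000 UMIs the median was -0.82. H2-Aa stood at 5680.1 CPM (5536 to 5827) at 2 h and 2423 CPM (2309 to 2540.4) at 9 h, H2-Ab1 at 4410.4 CPM at 2 h and 1859 CPM at 9 h and H2-Eb1 at 4989 CPM at 2 h and 2345 CPM at 9 h. The peptide loading genes H2-DMa (347 and 56.7 CPM) and H2-DMb1 (251 and 36.9 CPM) were 6.12-fold and 6.82-fold lower, and Cd74, the invariant chain, 1.79-fold lower. Other gated macrophages had 9066 and 4989.9 CPM of H2-Aa, above the members at both times.

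The promoters of H2-Aa and H2-Eb1 are shown because both genes were lower at 9 h and MHC class II promoters are known to hold a Y box, whose core is ATTGG or its reverse complement. The RefSeq table of promoters (GRCm38.p6) held 4 of the list's 7 genes, and each sequence below is the 250 bases before the transcription start, with every ATTGG on either strand in capitals.
H2-Aa, chr17:34287824-34288073, minus strand: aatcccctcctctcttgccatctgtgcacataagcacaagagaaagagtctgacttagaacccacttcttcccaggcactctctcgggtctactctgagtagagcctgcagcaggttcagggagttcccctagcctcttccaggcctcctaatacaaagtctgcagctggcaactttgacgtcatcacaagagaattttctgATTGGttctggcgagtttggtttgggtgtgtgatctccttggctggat
H2-Eb1, chr17:34305617-34305866, plus strand: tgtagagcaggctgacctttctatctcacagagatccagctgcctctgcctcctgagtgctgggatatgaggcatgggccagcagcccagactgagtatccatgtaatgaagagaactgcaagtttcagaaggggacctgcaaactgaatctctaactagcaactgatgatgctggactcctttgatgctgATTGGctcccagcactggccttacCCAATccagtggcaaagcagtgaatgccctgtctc
The motif began 48 bases before the start in H2-Aa and 59 and 35 bases before it in H2-Eb1, was also in the H2-DMb1 promoter, and had no match in this window for H2-DMa. Among 27025 promoters of the same length, 34.5% held it at least once, and 10.5% at least 2 times.

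MHC class II divided the members among themselves. At 2 h the summed level of the 7 genes per member had a lower quartile of 2386, a median of 29053 and an upper quartile of 51678 CPM, and 14 members had none. At 9 h the quartiles were 4284, 11131 and 22263 CPM, and 11 members had none. Lyve1, whose levels the rule also used, is described beside it: across members the relation was negative, with rho -0.55 (r -0.54) over 175 cells at 2 h and -0.40 (r -0.37) over 124 cells at 9 h. With a limit of 10000 CPM, set after the values were seen, 57 members lay under and 118 at or over it at 2 h, with 23 cells within 2-fold of the limit; at 9 h 55 lay under and 69 over, with 50 near it, so the sides are ranges and not types. At 2 h the low side had 1437 CPM of Lyve1, 966 of Folr2, 1910.5 of F13a1 and 8.83 of Ccr2, and the high side 424, 557, 992 and 203 CPM. Only 1 of the 57 cells on the low side had a Ccr2 UMI, against 44 of 118 on the high side. Retnla, which encodes the secreted protein RELM-alpha, stood at 556 CPM on the low and 3327 CPM on the high side. At 9 h Lyve1 still differed (574 and 271 CPM), as did Retnla (147 and 2098 CPM), while F13a1 (867 and 866 CPM) and Ccr2 (143 and 203 CPM) lay closer together. Retnla rested on few cells. At 9 h it was found in 7 of the 55 cells on the low side and 20 of the 69 on the high side. One cell on the high side had 269 UMIs of it. Cd163 was alike on both sides at each time (830.1 and 720.3 CPM at 2 h, 1232 and 1167 CPM at 9 h).

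**Figure D3:**
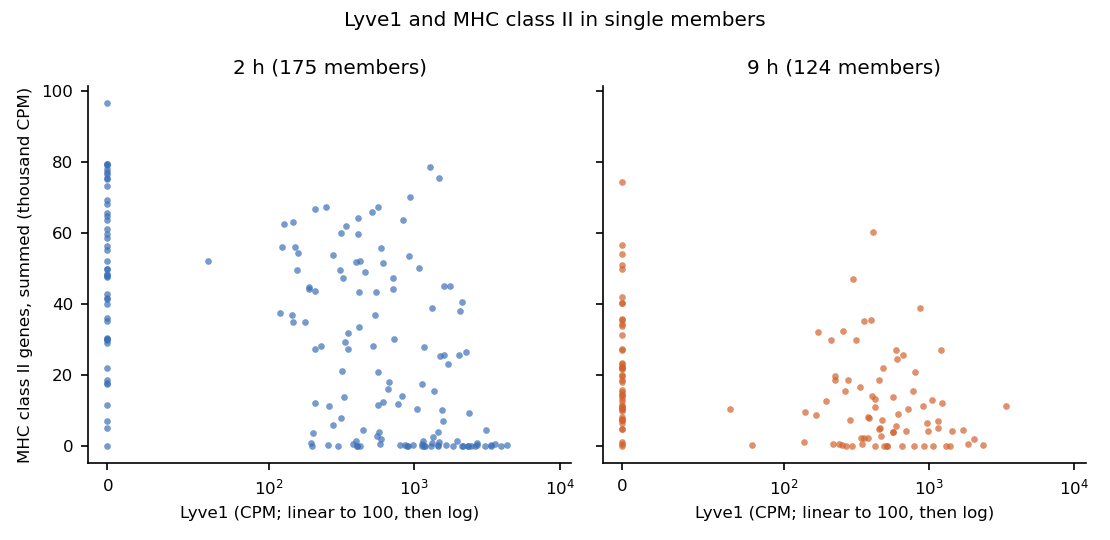
Each point is 1 member, with its Lyve1 level (CPM; linear to 100, then log) against the summed level of 7 MHC class II genes (in units of 1000 CPM), at 2 h (left, 175 members) and 9 h (right, 124 members). At 2 h members near 0 on the MHC class II axis mostly have Lyve1, while members with high Lyve1 lie both there and higher up.

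Heat shock genes, which encode chaperones made when proteins unfold, lay lower at 9 h. All 13 genes were measured; 10 were at least 2-fold lower, none was 2-fold higher, and the median log2 ratio was -1.25. Hspa8 stood at 6000.0 CPM (5852 to 6151) at 2 h and 2647 CPM (2528 to 2769.6) at 9 h, Hsp90aa1 at 5196 CPM at 2 h and 2023 CPM at 9 h, Hspb1 at 1612 CPM at 2 h and 546 CPM at 9 h and Dnajb1 at 514 CPM at 2 h and 129 CPM at 9 h. Hspa1a (7146 and 4088 CPM) and Hspa1b (12713 and 6256 CPM) are near-identical copies whose reads the counting could divide wrongly, and both were lower. Hspa5, the chaperone of the endoplasmic reticulum, went the other way with 2045 CPM at 2 h and 3099 CPM at 9 h. Other gated macrophages had 3679 and 3018 CPM of Hspa8. The 13 genes summed to 42241 CPM at 2 h and 22177 CPM at 9 h in members and 25149 and 19580 CPM in other gated macrophages. Over all kept cells the sums were 20574 and 10442 CPM and in FAPs 23189 and 11388 CPM, so the lower level was not particular to members. In neutrophils they were 3167 and 3360 CPM. Cells were frozen and thawed before sequencing, and how much of these levels comes from handling was not tested. Immediate early genes, which are switched on by stimulation and by cell isolation, differed less: of 17 measured, 1 was 2-fold higher (Ier3, 658 and 1565 CPM) and 1 lower (Klf2, 1427 and 654 CPM), with Fos at 1403 and 1374 CPM and a median log2 ratio of -0.36. Across members, summed heat shock and immediate early levels went together, with rho 0.46 at 2 h and 0.42 at 9 h.

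Promoters of Hspa1a and Hspb1 are shown because both genes were lower at 9 h and heat shock genes are known targets of heat shock factor, whose binding element can be written GAANNTTC, the same on both strands. RefSeq promoters were found for 10 of the 13 genes; each sequence is the 250 bases before the start on GRCm38.p6, with the matches in capitals.
Hspa1a, chr17:34972157-34972406, minus strand: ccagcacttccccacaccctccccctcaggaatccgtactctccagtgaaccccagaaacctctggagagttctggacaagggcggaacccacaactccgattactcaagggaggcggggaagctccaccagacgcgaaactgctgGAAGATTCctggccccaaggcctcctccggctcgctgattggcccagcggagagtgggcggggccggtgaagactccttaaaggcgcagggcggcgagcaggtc
Hspb1, chr5:135887669-135887918, plus strand: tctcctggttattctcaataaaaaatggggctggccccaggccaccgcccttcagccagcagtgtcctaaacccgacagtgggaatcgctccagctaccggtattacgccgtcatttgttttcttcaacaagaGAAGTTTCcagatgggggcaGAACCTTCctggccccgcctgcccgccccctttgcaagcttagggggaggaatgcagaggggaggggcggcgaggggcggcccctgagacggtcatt
The motif began 104 bases before the start of Hspa1a and 117 and 97 bases before that of Hspb1. It was in 5 of the 10 promoters (Hspa1a, Hspa1b, Hspb1, Dnaja1 and Hspe1) and in 6.78% of 27025 promoters of the same length. In Hsph1, Dnajb1, Hspd1, Bag3 and Hspa5 these letters were not in this window.

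Genes of lipid handling, hypoxia and redox balance lay mostly higher at 9 h in members. The 20 genes of glycolysis and hypoxia summed to 1953 CPM at 2 h and 4504 CPM at 9 h in members. In other gated macrophages their sums were higher, 2812 and 6619 CPM. The 14 antioxidant genes summed to 22682 and 26432 CPM in members and 13744 and 12593 CPM in other gated macrophages. Over all kept cells they summed to 24095 and 35528 CPM. Of 12 measured lipid-associated macrophage genes 7 were at least 2-fold higher and 1 lower (median log2 ratio 1.16). The lectin Lgals3 stood at 456 CPM at 2 h and 1430.4 CPM at 9 h. The fatty acid carrier Fabp4 stood at 53.9 CPM at 2 h and 224 CPM at 9 h. Endothelial markers summed to 125 and 258 CPM, but Fabp4 is one of them and was most of the sum at 9 h. Without Fabp4 the sum was lower at 9 h than at 2 h. The part of endothelial RNA in the Fabp4 level was not tested. Apoe, the lipoprotein of cholesterol export, was 2.52-fold lower (interval 2.41 to 2.64), with 8707 CPM at 2 h and 3453 CPM at 9 h. Spp1, which encodes osteopontin, had 9.63 and 130.4 CPM, of which the neutrophil share would supply 39.1 CPM at 9 h. Of 12 glycolysis and hypoxia genes 5 were 2-fold higher and none lower (median 0.66), with Hilpda as above, phosphoglycerate kinase Pgk1 at 65.5 and 301 CPM, pyruvate kinase Pkm at 277 and 1028 CPM and Gapdh at 511 and 1151 CPM. Hif1a, the oxygen-sensing transcription factor, was 2.62-fold higher (interval 2.19 to 3.15). Of 12 antioxidant genes tied to NRF2, 6 were higher and none lower (median 0.91): thioredoxin, Txn1, had 218 CPM at 2 h and 733 CPM at 9 h, peroxiredoxin Prdx1 506 CPM at 2 h and 1273 CPM at 9 h, and the cystine carrier Slc7a11 85.7 CPM at 2 h and 432 CPM at 9 h, with 62.0 and 148 CPM from the neutrophil share. The metallothioneins Mt1 (15479.7 and 13075 CPM) and Mt2 (2637 and 4108 CPM) differed by less than 2-fold.

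Of 8 measured genes on the haem and iron list, 5 had a higher level at 9 h than at 2 h and 3 a lower one. Hmox1, haem oxygenase, which breaks haem down, stood at 3028 CPM (2923 to 3136) at 2 h and 5566 CPM (5393 to 5742) at 9 h, 1.84-fold higher (interval 1.75 to 1.93), above its level in other gated macrophages (1115 and 1820.0 CPM) and neutrophils (365 and 497 CPM). The ferritin chains Fth1 and Ftl1, which store iron, stood at 10693 and 23979 CPM and at 7398 and 12574 CPM, and the haem transporter Slc48a1 at 57.8 CPM at 2 h and 163 CPM at 9 h. Of the list's 8 measured genes 2 were at least 2-fold higher, Fth1 and Slc48a1, and 1 lower (median 0.72). The lower one, Hpgd, encodes an enzyme that degrades prostaglandins and handles neither haem nor iron. Blvrb, a biliverdin reductase, stood at 323 CPM at 2 h and 180.0 CPM at 9 h and the ferritin receptor Ncoa4 at 72.3 CPM at 2 h and 43.9 CPM at 9 h. At 9 h members under the MHC class II limit had 7469 CPM of Hmox1 and those over it 4100.0 CPM. Genes for building ribosomes were higher together: of 8 measured, 7 were at least 2-fold higher and none lower (median 1.21), nucleolin, Ncl, with 251 CPM at 2 h and 658 CPM at 9 h and fibrillarin, Fbl, with 61.7 CPM at 2 h and 172 CPM at 9 h. The nucleolar Nop58 had 141 and 152 CPM. The 17 genes of this list summed to 1123 and 2502 CPM in members and 1355 and 2126 CPM in other gated macrophages. Over all kept cells they summed to 1719 and 4776 CPM, so the higher level was not particular to members.

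Uptake receptors and lysosomal genes gave no single direction. Over all measured genes 8.11% were at least 2-fold higher at 9 h and 9.85% at least 2-fold lower. Of 13 scavenger and efferocytosis receptors 3 were 2-fold higher and 2 lower. Higher were Cd36, a receptor for oxidised lipid and dying cells (582 and 2031 CPM), Msr1, the class A scavenger receptor (169 and 516 CPM), and Clec10a; lower were Cd209f and Colec12. Mertk had 129 CPM at 2 h and 65.2 CPM at 9 h. The median log2 ratio was 0.34, but -0.32 with at least 3 UMIs of the rule's genes and -0.10 with the rule on thinned cells, so no direction is given for the list. Of 18 lysosomal genes 2 were higher, cathepsins Ctsl (493 and 1621.8 CPM) and Ctsz (349.7 and 777 CPM), and 2 lower, Ctsc (1213 and 468 CPM) and Hexa (354 and 125 CPM), with a median of -0.22. These lysosomal counts lie near the shares over all measured genes. Complement genes outside C1q were divided, with 1 of 6 higher, the integrin Itgam (262 and 587 CPM), and 2 lower, among them C4b (99.2 and 24.1 CPM); their median was -0.34, and 0.20 without the 25% of members richest in neutrophil and FAP markers. Of 7 alternative activation genes 2 were higher, Arg1 and Tgm2, and 2 lower, Mgl2 and the signalling inhibitor Socs3 (549 and 242 CPM), and Retnla had 2420.0 CPM at 2 h and 1249 CPM at 9 h (median -0.68). Of 15 transcription factors 2 were higher, Hif1a and Id3, and 3 lower: Bach1, a repressor that senses haem (513 and 138 CPM), Runx1 (382 and 164 CPM) and Klf2 (median -0.28).

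**Figure D4:**
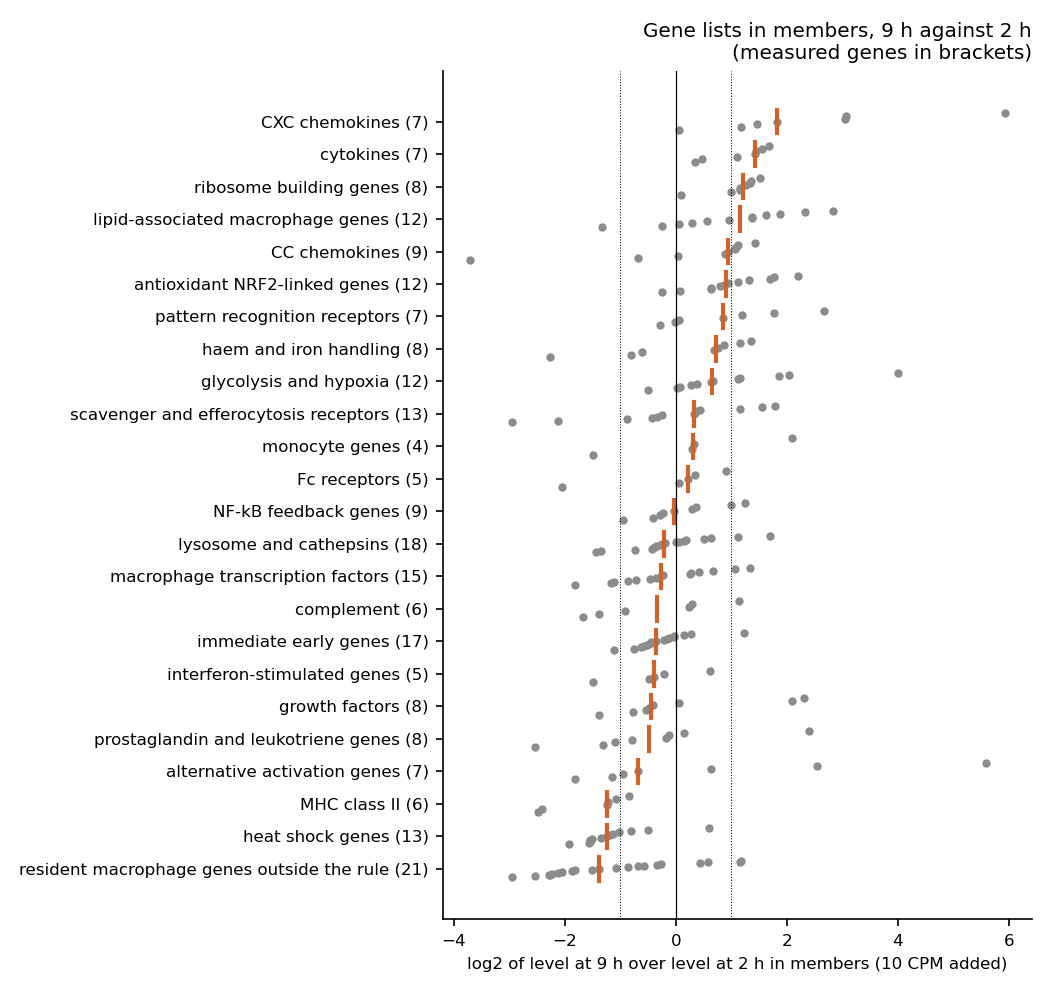
Each grey point is 1 measured gene of a list, placed at its log2 ratio of the level at 9 h over that at 2 h in members (10 CPM added), and orange bars are the medians of the lists with at least 4 measured genes; dotted lines mark 2-fold. CXC chemokines have the highest median (1.82) of the lists drawn, and resident macrophage genes (-1.39), heat shock genes (-1.25) and MHC class II (-1.23) the lowest.

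Arg1, Ppbp and Fn1, all higher at 9 h, were each carried by part of the members. At 2 h no member had Arg1, while 18 of 175 had Ppbp and 20 had Fn1. The 36 members with an Arg1 UMI had 3545 CPM of Ppbp, 1429 of Cxcl5, 2617 of Retnla, 679.7 of Fn1 and 248 of Ccr2, and the 88 without had 1559.7, 522, 518, 233 and 139 CPM. Cbr2, the resident marker outside the rule, stood at 102 CPM in the cells with Arg1 and 181 CPM in those without, while Cbr2 in the other gated macrophages was 24.0 CPM. Median depths were 6066 and 5064 UMIs. Neutrophil markers summed to 1661 CPM with and 2691 CPM without Arg1, FAP markers to 497 and 196 CPM, and monocyte markers, Ccr2 included, to 558 and 346 CPM; their part in these differences was not tested. The 56 members with Ppbp differed from the 68 without in Ccl24 (1169 and 419 CPM), Gdf15 (1018 and 377 CPM) and Retnla (2124 and 413 CPM), and had 107 and 197 CPM of Cbr2 and 191 and 164 CPM of Ccr2. The members highest in Retnla at 9 h (25786 and 22090 CPM) had UMIs of both Arg1 and Ppbp, so they weigh on both Retnla differences. Beside the Ppbp division, neutrophil markers summed to 760.2 and 3834 CPM and FAP markers to 159.6 and 435 CPM. The 30 members with Fn1 had 357 CPM of Ccr2 and 42.3 CPM of Cbr2, against 99.4 and 201 CPM in the 94 without. Beside the Fn1 division, FAP markers summed to 630.2 and 158 CPM, neutrophil markers to 3160.2 and 1975 CPM and monocyte markers to 1025 and 158 CPM, and median depths were 6869 and 5098 UMIs. Ccr2 was found in 45 of 175 members at 2 h and 31 of 124 at 9 h. Cells were split here on the genes they carried, so a deeper cell is more likely to fall on the side with a UMI.

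Against the other gated macrophages, 35 genes (2.04% of 1712 measured) were at least 2-fold higher in members at both times and 29 (1.69%) at least 2-fold lower, with the rule's 3 genes left out; at 2 h alone the shares were 4.38% and 3.68%, and at 9 h 3.74% and 3.27%. The cells were divided on genes that go with these, so the values describe the division and are no test of it. Higher at both times were Ctla2a, a protease inhibitor gene (414 against 48.2 CPM at 2 h, 697 against 75.1 CPM at 9 h), with its close relative Ctla2b, whose reads may be shared with it, and Cbr2, which was 8.13-fold higher at 2 h (interval 6.00 to 11.3) and 6.37-fold at 9 h (3.75 to 11.5). Selenop was 4.11-fold and 5.55-fold higher, the NAD-consuming enzyme Cd38 5.75-fold and 6.07-fold, the endothelin receptor Ednrb 4.91-fold and 3.76-fold, and Stab1 4.03-fold and 3.40-fold. The trafficking genes Itsn1 (145 against 32.1 CPM at 2 h) and Rin2 (275 against 80.3 CPM at 2 h) followed.

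Lower in members at both times was Ear2, a ribonuclease gene of monocytes and eosinophils, with 3.85 against 157 CPM at 2 h and 53.9 against 748 CPM at 9 h, 40.8-fold and 13.9-fold lower. Fn1 stood at 83.8 against 869 CPM at 2 h and 388 against 1847 CPM at 9 h, and lipoprotein lipase, Lpl, at 116 against 498 CPM at 2 h and 313 against 1479 CPM at 9 h. The actin-binding Tmsb10 (221 against 896 CPM at 2 h), the interleukin-7 receptor Il7r (25.05 against 204 CPM at 2 h), the transcription factor Bhlhe40 (44.3 against 167 CPM at 2 h), the A20-binding Tnip3 (187 against 805 CPM at 2 h), Rab11fip1 (46.2 against 153 CPM at 2 h), the NF-kB adaptor Malt1 (107 against 326 CPM at 2 h) and the leukocyte actin-binding Lsp1 (176 against 525 CPM at 2 h) were also lower, each by 3.27 to 4.50-fold at 9 h. With the rule applied after thinning to 2000 UMIs, 13 genes were higher and 17 lower at both times, out of a gene total that was not kept.

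**Figure D5:**
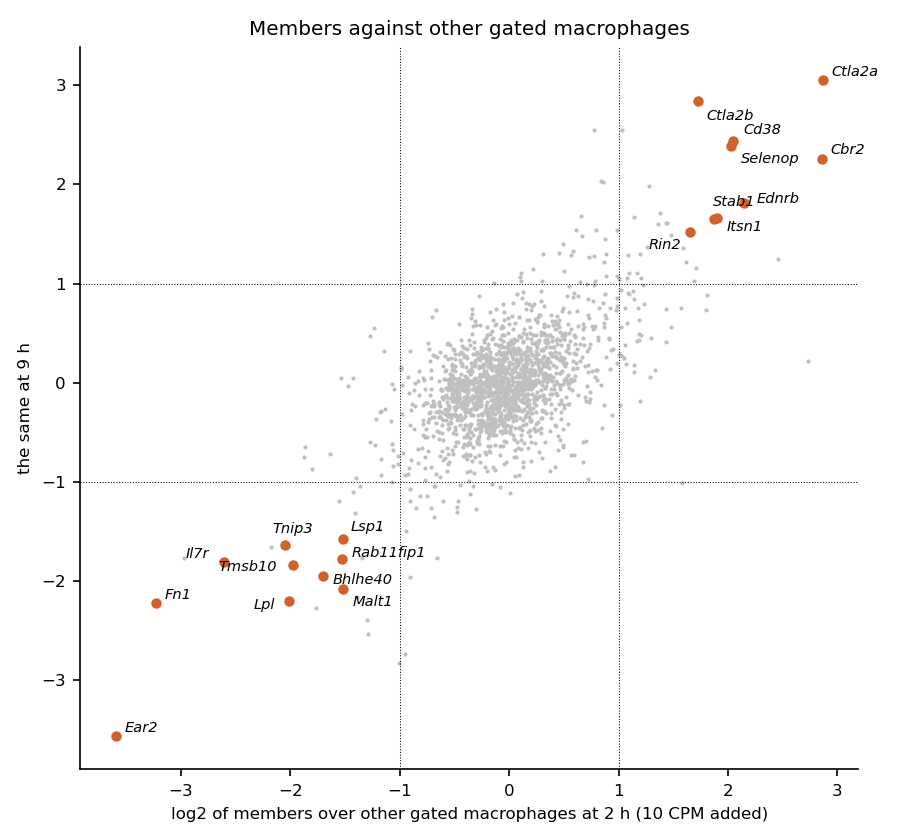
Each point is 1 of 1710 genes, at its log2 ratio of the level in members over that in other gated macrophages at 2 h (horizontal) and 9 h (vertical), after adding 10 CPM; 19 named genes are orange and dotted lines mark 2-fold. Ctla2a and Cbr2 lie far up and right and Ear2 far down and left.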

How the data were processed

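Single-cell RNA was measured in 1 library from 2 h and 1 from 9 h, each made with a target of 5000 cells. The deposited matrices hold UMI counts by gene and barcode. Per the submitters' processing notes the authors used Cell Ranger 5.0.0 and mm10, with no annotation release named, and 99.8% of the 32285 gene identifiers matched GENCODE M21. Barcodes with under 200 genes or 500 UMIs or over 20% mitochondrial UMIs were removed, leaving 4900 and 8147 cells. Scrublet called 6 (0.122%) and 0 doublets, under the 0.5% at which its calls would be used, so none were removed. UMIs were summed per set of cells and scaled to CPM. Intervals at 95% are exact Poisson for levels, conditional binomial for ratios and Clopper-Pearson for shares; they treat UMIs as independent and cover counting error only. A gene was measured with at least 100 UMIs over both libraries in members, or over members and other gated macrophages in each library. Log2 ratios use a pseudocount of 10 CPM, and bounds a floor of 3 counts over the set. Neutrophils were cells with at least 20 UMIs of S100a8 and S100a9 and 1 of Csf3r, and FAPs cells with at least 1 UMI of Pdgfra and 5 of Dcn, both with under 5 C1q UMIs and no Cdh5 (and neutrophils no Pdgfra). Named genes were the 12 highest and 12 lowest log2 ratios between the times and the 10 highest and 10 lowest against other gated macrophages at both times, where the higher level was at least 100 CPM and no less than 50% of that in the whole library (mitochondrial, haemoglobin, ribosomal protein and unnamed genes excepted), plus the rule's genes, Ccl2, Ccl7, Ccr2 and, from 25 gene lists and 17 marker lists, members with the highest level or largest ratios. A few genes are not reported here. Members and lists were chosen with earlier results of these data known. The ratio step was tested on simulated data. Alternatives changed the member rule, mitochondrial limit, doublets, carried-over RNA, scaling (TMM), weight of cells, pseudocount and low-count filter. Software was scipy 1.17.1, pandas 2.3.3, numpy 2.4.6, Scanpy 1.11.5 (for Scrublet) and matplotlib 3.10.9 under Python 3.11.15, with edgeR 4.0.16 in R 4.3.3 for TMM only.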

Additional observations from a re-analysis of the deposited data

How the results depend on the processing

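The alternatives were run for the 24 genes named between the times, for Ccl2, Ccl7, Ccr2 and the rule's 3 genes, and for the 20 named against other gated macrophages at each time: 1 of these 70 log2 ratios changed sign among 560 values, that of Ccr2, 0.32 in members and -0.08 without the 25% of members richest in neutrophil and FAP markers. Sizes were less stable than signs. Between the times 40 values left the counting interval of the main value and 200 stayed within it. Against other gated macrophages 63 left and 257 stayed. Of these, 25 left and 15 stayed with the rule on cells thinned to 2000 UMIs, and 21 and 19 with a mean over cells. Shares of members with a UMI depend on depth, and at other depths 26 left and 6 stayed. Other genes of the lists were covered only through their list's median. The share of kept cells that were members ranged from 3.16 to 3.72% at 2 h and from 1.36 to 1.80% at 9 h. Without a filter on low counts, 13524 genes counted between the times, down to those with 1 UMI. Of them 2326 were at least 2-fold higher and 3790 lower at 9 h. The other settings gave 153 to 198 higher and 200 to 288 lower, out of 1781 to 2405 measured genes. Against other gated macrophages, 757 genes were higher and 565 lower at both times without the filter. Gene totals for that comparison were not kept by setting, so its counts cannot be set against each other as shares. With the rule on cells thinned to 2000 UMIs, 13 genes were higher and 17 lower than in other gated macrophages, and with a mean over cells 20 were higher; the cause was not tested. Medians of 6 lists changed sign under some setting: scavenger receptors and complement as given above, NF-kB feedback genes with at least 3 UMIs of the rule's genes (0.09), and, with no filter, alternative activation genes (0.12), growth factors (0.05) and transcription factors (0.03). No paired analysis was possible because each time has 1 library. Members at 9 h rest on 705402 UMIs, where 1 UMI is worth 1.42 CPM, so levels under about 10 CPM there rest on a few counts.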

Other observations

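Beside the counts here, 8.11% of all measured genes were at least 2-fold higher at 9 h and 9.85% at least 2-fold lower. Where only 1 gene of a list was called, no direction is given for the list. Of 7 measured pattern recognition receptors 3 were at least 2-fold higher at 9 h and none lower (median log2 ratio 0.85). These were the lectin receptors Clec4e (54.9 and 401 CPM) and Clec4d (148 and 533 CPM) and the inflammasome sensor Nlrp3 (147 and 352 CPM). Cd14 had 2516 and 2484 CPM. For Clec4e the neutrophil share would supply 22.5 and 69.1 CPM. Of 8 prostaglandin and leukotriene genes 1 was higher, cyclooxygenase Ptgs2 (50.1 and 308 CPM), and 3 lower: Ltc4s as above, the 5-lipoxygenase Alox5 (88.6 and 29.8 CPM) and the receptor Ptger4 (157 and 68.0 CPM), with a median of -0.49. The prostaglandin D synthase Hpgds had 106 and 56.7 CPM. Of 9 NF-kB feedback genes 2 were higher, Nfkbia (1340.1 and 2694 CPM) and Tnfaip3 (267 and 645 CPM), and 1 was lower, Birc3 (199 and 97.8 CPM), with a median of -0.04. Of 5 interferon-stimulated genes none was higher and 1 lower, Bst2 (219 and 70.9 CPM; median -0.39). Of 5 Fc receptors 1 was lower, Fcgrt, and Fcgr1 had 142 and 274 CPM (median 0.21). Of 4 monocyte genes 1 was higher, Fn1, and 1 lower, the lysozyme gene Lyz2 (8229 and 2930.2 CPM; median 0.31). Of 12 proliferation genes 1 was measured, Pcna, with 151 and 237 CPM.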
